A study of Mus musculus with 6 samples.

Results

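*Tcfl5* and 8 genes that follow it on distal mouse chromosome 2 were examined in RNA-seq of whole tibias. *Tcfl5* was selected on its difference between genotypes in these same libraries, 1 of 3 genes called among 20636 tested with edgeR (23 with DESeq2, and 0 with the replicate number as a block), and *Dido1*, *Gid8*, *Slc17a9*, *Ythdf1*, *Birc7*, *Nkain4*, *Arfgap1* and *Eef1a2* were selected by name and position, in view of earlier results. The 9 genes are among the 55401 gene identifiers of each count table, and 8 of the 9 passed the expression filter. The libraries came from male mice of 8 weeks of age, 3 of genotype Osterix-Cre; Atrxf/y (Atrx-cKO) and 3 of genotype Atrxf/y (control), with 1 library of polyadenylated RNA per tibia sample. Both genotypes carried the floxed *Atrx* allele, and doxycycline was given from conception to 3 weeks of age to keep the Cre silent. Cre was driven by regulatory sequences of *Sp7* (Osterix), which is active in preosteoblasts. The Osterix-Cre transgene was present in each Atrx-cKO mouse and in no control, so its presence and the loss of *Atrx* cannot be told apart. In whole bone, fewer cells of a type and less RNA per cell cannot be told apart either. The sources name separate mice but do not tie each library to its animal.

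ATRX is a chromatin remodeler that works with DAXX to place the histone variant H3.3 into heterochromatin, telomeres and GC-rich repeats. TCFL5 is a basic helix-loop-helix transcription factor best known from the testis, where spermatocytes need it to pass through meiosis. The genes beside it have unrelated roles, in chromatin (*Dido1*), protein degradation (*Gid8*), reading of methylated mRNA (*Ythdf1*), inhibition of apoptosis (*Birc7*), vesicle loading with ATP (*Slc17a9*), the sodium pump (*Nkain4*), Golgi traffic (*Arfgap1*) and translation (*Eef1a2*). They were compared along the chromosome to show whether the difference at *Tcfl5* was shared by its neighbors.

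Levels are given as CPM, the reads on a gene scaled to the library's reads on all genes after TMM normalization, and fold changes as Atrx-cKO over control from edgeR's quasi-likelihood fit to all genes tested. The libraries held 50977777 to 70571655 reads on genes, so that 3 counts, the most that a count of 0 allows, corresponded to 0.0425 to 0.0589 CPM before TMM scaling. Libraries of the same genotype differed from each other by more than counting noise. Markers of bone-forming cells were high in each library, with 10 osteoblast genes, mostly *Col1a1* and *Col1a2*, summing to 111600 to 188650 CPM. The 12 skeletal muscle markers summed to 2917, 1529 and 839 CPM in Atrx-cKO replicates 1 to 3 and to 972, 1096 and 14376 CPM in control replicates 1 to 3, so control replicate 3 stood apart. Across all genes, 0.0145% were called, with an adjusted p under 0.05 and a difference of at least 1 on the log2 scale in either direction, and *Tcfl5* was the only member among them. An unadjusted p under 0.05 was reached by 3.64% of all genes tested and by 1 of the 8 members tested, again *Tcfl5*. Groups that did not overlap were found for 8.31% of all genes tested and for the same 1 of 8 members. Because *Tcfl5* was chosen for this contrast, nothing is read from these counts as far as they include it.

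The members span a segment that begins at *Tcfl5* (ENSMUSG00000038932), which lies on the minus strand at chr2:180621956-180642708 of GRCm38 in the GENCODE M21 annotation. *Dido1*, also on the minus strand, follows after 15255 bases at chr2:180657964-180709999. *Gid8* is transcribed away from *Dido1* on the plus strand at chr2:180710117-180718733, with 117 bases between the annotated ends. *Slc17a9* begins 6529 bases farther on at chr2:180725263-180742280 on the plus strand. A gap of 162096 bases separates it from *Ythdf1*, which occupies chr2:180904377-180920949 on the minus strand. *Birc7* (plus strand, chr2:180929023-180934010), *Nkain4* (minus strand, chr2:180934772-180954699) and *Arfgap1* (plus strand, chr2:180967225-180982526) follow within a short distance of each other. *Eef1a2* lies last, on the minus strand at chr2:181147653-181157014, and its start is 514.3 kb from that of *Tcfl5*. The *Tcfl5* and *Col9a3* genes overlap on opposite strands by 234 exonic bases at their 3′ ends, and *Nkain4* shares 55 exonic bases with the antisense gene *Gm14341*. The labels call the libraries strand specific and the sources used here do not state how strand was counted, so reads in those short stretches may belong to either gene.

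The sequence upstream of *Tcfl5* is shown because it is the promoter of the one member that differed, and those of its neighbors because they cover the range from CpG-rich to CpG-poor starts. All are from GRCm38 and none lies in an annotated exon. In the first line, the 233 bases upstream of *Tcfl5* (chr2:180642709-180642941, minus strand, from RefSeq's promoter table) hold 18 CG dinucleotides, and the capitals mark a run with 4 stretches of GGG separated by 1 to 7 bases. In the second line, the 117 bases between *Dido1* and *Gid8* (chr2:180710000-180710116, plus strand) hold 14 CG dinucleotides, marked in capitals. The next lines give the 250 bases upstream of *Birc7* (chr2:180928773-180929022, plus strand) and of *Eef1a2* (chr2:181157016-181157265, minus strand), with 2 and 4 CG dinucleotides in capitals. The sequences read 5′ to 3′ on the named strand:
Tcfl5 upstream: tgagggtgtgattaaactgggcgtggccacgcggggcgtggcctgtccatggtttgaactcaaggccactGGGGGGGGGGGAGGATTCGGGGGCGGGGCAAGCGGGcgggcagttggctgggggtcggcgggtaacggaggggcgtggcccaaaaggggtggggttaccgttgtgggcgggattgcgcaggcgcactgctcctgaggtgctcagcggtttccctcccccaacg
Dido1 to Gid8: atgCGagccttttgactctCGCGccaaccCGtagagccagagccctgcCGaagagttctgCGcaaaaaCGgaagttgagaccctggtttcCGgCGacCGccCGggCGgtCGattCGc
Birc7 upstream: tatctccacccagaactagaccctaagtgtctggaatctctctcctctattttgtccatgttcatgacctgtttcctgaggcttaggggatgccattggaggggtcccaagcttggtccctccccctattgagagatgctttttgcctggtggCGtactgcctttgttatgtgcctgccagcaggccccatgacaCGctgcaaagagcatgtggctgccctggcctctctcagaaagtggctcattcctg
Eef1a2 upstream: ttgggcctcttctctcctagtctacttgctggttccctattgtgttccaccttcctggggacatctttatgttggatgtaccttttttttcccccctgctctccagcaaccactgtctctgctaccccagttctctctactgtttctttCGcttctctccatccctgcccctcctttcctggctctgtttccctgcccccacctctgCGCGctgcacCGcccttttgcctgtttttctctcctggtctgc

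RefSeq's promoter table for GRCm38.p6 held 7 of the 9 members and lacked *Slc17a9* and *Nkain4*. Over all 32851 promoters of the table, the median was 6 CG dinucleotides in the 250 bases before the start, with a GC content of 52.4%. *Tcfl5* had 22 CG dinucleotides and 70.4% GC there, and 85.2% of promoters had fewer CG dinucleotides. The most CG-rich start of *Dido1* had 33, that of *Gid8* had 35, that of *Ythdf1* had 30 and that of *Arfgap1* had 23, so the 4 neighbors were at least as CG-rich as *Tcfl5*. *Birc7* and *Eef1a2* were CG-poor, with 2 and 4. The pattern of 4 GGG runs 1 to 7 bases apart, on either strand, was present in the promoter of *Tcfl5* and in none of the other 6 members with a promoter, and 16.7% of all promoters held it. The motif CTCGCGAG, which reads the same on both strands, stood in promoters of *Dido1* and *Gid8*, against 0.761% of all promoters. The promoters of *Dido1* and *Gid8* that held it overlap, so a single site can count for both genes. CACGTG, the E-box of many basic helix-loop-helix factors and also the same on both strands, stood in the promoter of *Ythdf1* and in 6.02% of all promoters. A match is a description of these letters and not a measured binding site.

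*Tcfl5* was higher in Atrx-cKO than in control tibias. Reads on the gene numbered 374, 422 and 471 in Atrx-cKO replicates 1 to 3 and 18, 23 and 37 in control replicates 1 to 3. These were 6.40, 7.39 and 8.0 CPM against 0.316, 0.345 and 0.777 CPM. The lowest Atrx-cKO library was 8.23 times the highest control, so the groups did not overlap. The mean was 7.26 ± 0.808 CPM (SD, n = 3) in Atrx-cKO and 0.479 ± 0.258 CPM (SD, n = 3) in control, a log2 fold change of 3.94 (standard error 0.35), or 15.4-fold. As this contrast chose the gene, the value is a description without a test. Within a genotype the gene varied by 1.25 times among Atrx-cKO libraries and by 2.46 times among controls, where the highest was control replicate 3. Counting error alone placed that control at 0.527 to 1.0 CPM and the lowest Atrx-cKO library at 5.82 to 7.13 (95% Wilson intervals of the share of all reads on genes, before TMM scaling, which cover counting error only). By count, *Tcfl5* ranked 11401 to 12039 among all genes in the Atrx-cKO libraries and 16726 to 18662 in the controls, so that it remained a gene of modest level where it was high. Leaving out control replicate 3 gave a log2 fold change of 4.43. Without any one of the other 5 libraries the log2 fold change was 3.72 to 4.02. The adjusted p in edgeR was 0.0387 with all 6 libraries and 0.0967 to 0.28 in those 5 fits. These values describe how far the call depends on each library and do not test the gene.

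*Col9a3*, the gene that overlaps the 3′ end of *Tcfl5* and encodes a chain of cartilage collagen IX, did not have the same order over all libraries. It had 2.38, 2.28 and 6.30 CPM in Atrx-cKO replicates 1 to 3 and 1.35, 1.77 and 3.72 CPM in control replicates 1 to 3. The difference of 0.69 on the log2 scale had a standard error of 0.51 (adjusted p = 0.992), and the groups overlapped. Among the controls alone, *Col9a3* and *Tcfl5* had the same order. Atrx-cKO replicate 3 was the highest library of its genotype for both genes.

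*Dido1*, the next gene and one with a PHD finger that binds methylated histone H3, had nearly the same level in each library. It measured 104, 108 and 107 CPM in Atrx-cKO replicates 1 to 3 and 110, 113 and 102 CPM in control replicates 1 to 3. The means were 106 ± 1.95 and 108 ± 5.80 CPM (SD, n = 3 each), a log2 fold change of -0.02 (95% interval -0.19 to 0.15, adjusted p = 0.994). The upper end of the interval is 1.11-fold, beside 15.4-fold for *Tcfl5*.

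*Gid8*, which shares a start region with *Dido1* and encodes a scaffold subunit of the CTLH ubiquitin ligase, was as even. Its level was 47.0, 45.4 and 47.4 CPM in Atrx-cKO replicates 1 to 3 and 50.3, 46.9 and 46.3 CPM in control replicates 1 to 3. The log2 fold change was -0.04 (95% interval -0.20 to 0.13, adjusted p = 0.994). The Atrx-cKO libraries lay within or just below the range of the controls.

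*Ythdf1* encodes a cytoplasmic reader of N6-methyladenosine (m6A) in mRNA. It measured 63.7, 58.8 and 56.3 CPM in Atrx-cKO replicates 1 to 3 and 60.2, 65.2 and 59.9 CPM in control replicates 1 to 3. The groups overlapped, with a log2 fold change of -0.05 (95% interval -0.23 to 0.13, adjusted p = 0.992).

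*Birc7*, which encodes the apoptosis inhibitor livin, was at the limit of detection. A single read was counted in Atrx-cKO replicate 1 and in control replicate 3, and 0 in the other 4 libraries. All 6 values are under the allowance of 3 counts, so no fold is given and a difference was not detectable at this depth.

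*Slc17a9*, the vesicular nucleotide transporter that loads ATP into secretory vesicles, had 30.5, 32.1 and 26.4 CPM in Atrx-cKO replicates 1 to 3 and 25.9, 31.7 and 29.2 CPM in control replicates 1 to 3. The ranges of the genotypes were nearly the same. The log2 fold change was 0.04 (95% interval -0.23 to 0.30, adjusted p = 0.994).

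*Nkain4*, a membrane protein that associates with the sodium pump, was close to the limit of detection, with 8, 13 and 13 counts in Atrx-cKO replicates 1 to 3 and 7, 50 and 13 counts in control replicates 1 to 3. Control replicate 2 alone lay above the others, at 0.751 CPM against 0.123 to 0.273 CPM. The log2 fold change was -0.98 with a 95% interval of -2.56 to 0.59 (adjusted p = 0.992), and without control replicate 2 it was -0.0035.

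*Arfgap1*, which activates GTP hydrolysis by ARF1 on Golgi membranes and so sets the life of the COPI coat, had the highest mean level per length of the members. It had 113, 115 and 116 CPM in Atrx-cKO replicates 1 to 3 and 106, 142 and 139 CPM in control replicates 1 to 3. The Atrx-cKO libraries were close together and lay inside the wider range of the controls. The means were 115 ± 1.22 and 129 ± 19.9 CPM (SD, n = 3 each), with a log2 fold change of -0.17 (95% interval -0.44 to 0.10, adjusted p = 0.992). The controls with high *Arfgap1*, replicates 2 and 3, also had the highest sums of osteoblast markers, 188650 and 170230 CPM, against 111600 CPM in control replicate 1 and 117940, 118030 and 122060 CPM in Atrx-cKO replicates 1 to 3. The 10 osteoblast markers were all detected and none passed an adjusted p of 0.05. The groups of 1 of the 10 did not overlap, beside 8.31% of all genes tested. The 6 libraries fell in the same order in both measures, but the sums of Atrx-cKO replicates 1 and 2 were nearly equal. *Col1a1* and *Col1a2* made up most of each sum. In Atrx-cKO replicates 1 to 3, *Col1a2* rose like *Arfgap1*, at 51750, 51820 and 54580 CPM. *Col1a1* ran the other way, at 58160, 57840 and 57560 CPM. Within Atrx-cKO, the match in order thus rests on small differences in few genes. Control replicates 2 and 3 both stood above the other libraries in *Col1a1*, *Col1a2*, *Runx2*, *Sp7*, *Bglap*, *Ibsp* and *Alpl*. In *Bglap2*, *Spp1* and *Dmp1* they did not both do so. The part of the osteoblast markers in the level of *Arfgap1* was not tested.

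*Eef1a2*, the elongation factor 1A isoform of adult muscle and neurons, varied most among the controls of the 8 members tested. It had 24.5, 12.5 and 9.0 CPM in Atrx-cKO replicates 1 to 3 and 10.7, 10.9 and 111 CPM in control replicates 1 to 3. Control replicate 3 was 10.2 times the mean of the other controls, and Atrx-cKO replicate 1 was 2.27 times the mean of the other Atrx-cKO libraries. The log2 fold change of -1.52 had a 95% interval of -3.64 to 0.60 (adjusted p = 0.992), and without control replicate 3 it was 0.49. The skeletal muscle markers put the 6 libraries in the same order as *Eef1a2*, from 839 CPM in Atrx-cKO replicate 3 to 14376 CPM in control replicate 3. Their 12 genes were all detected in these bones, none passed an adjusted p of 0.05, and none had groups that did not overlap. Control replicate 3 was the highest library for 10 of the 12, such as *Acta1*, the actin of skeletal muscle, with 113 CPM in Atrx-cKO replicate 3 and 2003 CPM in control replicate 3. The other 2, the fast myosin heavy chains *Myh1* and *Myh2*, were not high there, with 52.4 and 10.7 CPM in control replicate 3 against 181 and 69.5 CPM in their highest library, Atrx-cKO replicate 1. With Atrx-cKO replicate 1 and control replicate 3 both left out, a choice made after the data were seen, the log2 fold change of *Eef1a2* was -0.01 (standard error 0.18). As those libraries also had the highest *Eef1a2* of their genotype, this value is not a test of muscle, and the part of muscle in the level of *Eef1a2* was not tested. These were the only 2 of 64 pairs of a member and a marker list in which all 6 libraries stood in the same order.

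**Figure D1:**
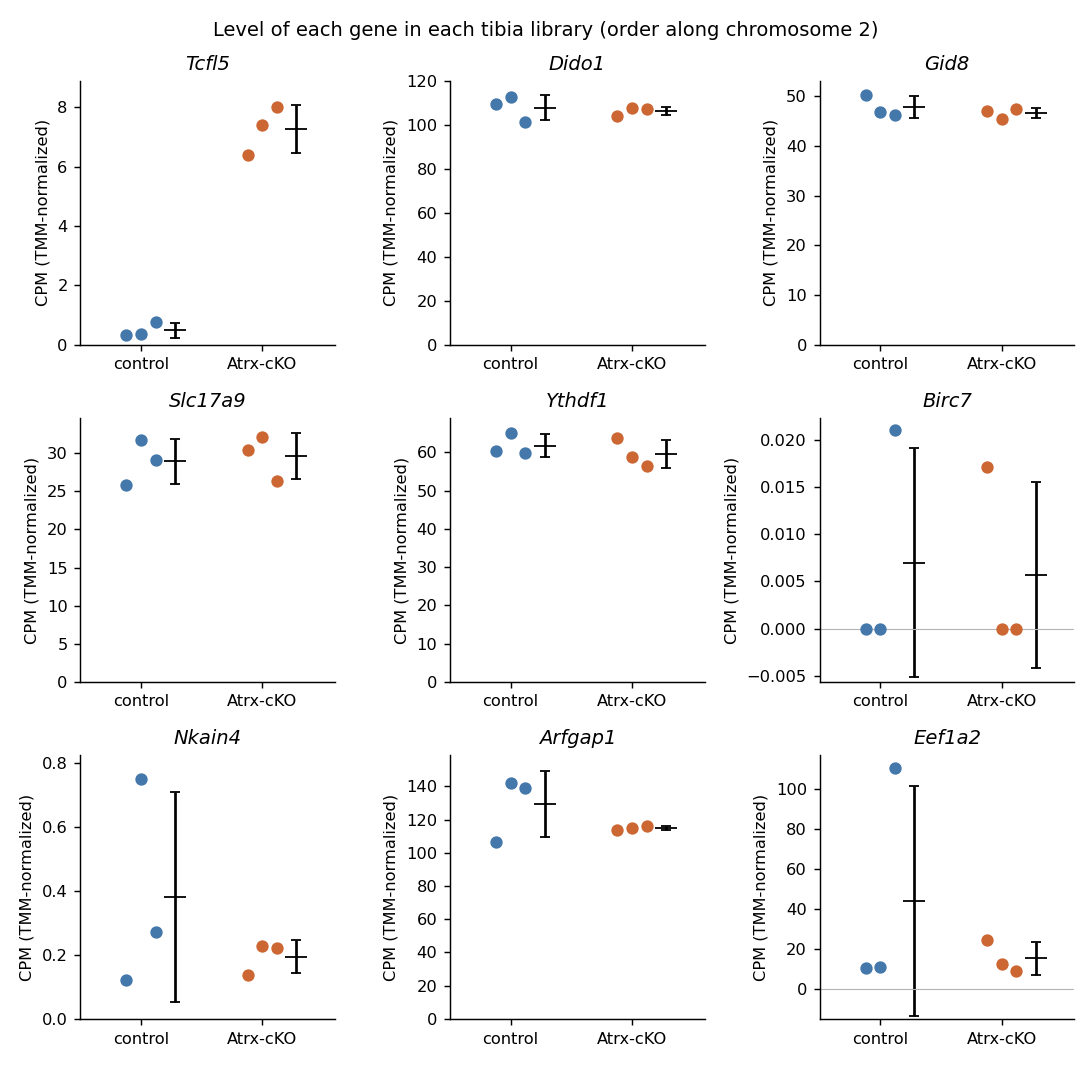
CPM of the 9 genes in each library, 1 panel per gene in chromosomal order, with controls in blue and Atrx-cKO in orange (replicates 1 to 3 from left to right) and the mean ± SD (n = 3) beside each group. The Atrx-cKO libraries stand above the controls for *Tcfl5* at 6.40 to 8.0 against 0.316 to 0.777 CPM, and for the other 8 genes the groups overlap.

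**Figure D2:**
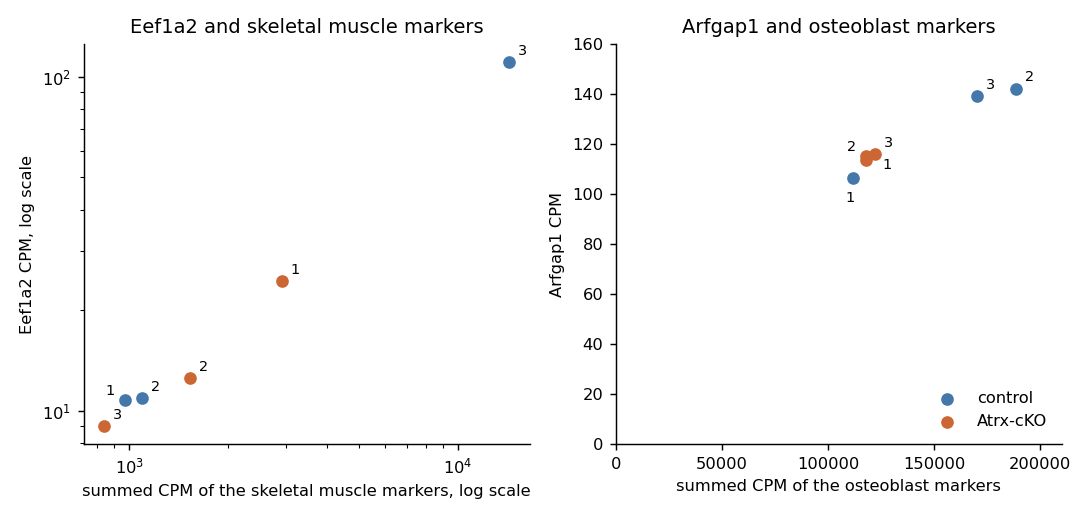
Left, *Eef1a2* CPM against the summed CPM of 12 skeletal muscle markers on log axes. Right, *Arfgap1* CPM against the summed CPM of 10 osteoblast markers, mostly *Col1a1* and *Col1a2*, on linear axes. Points are libraries, labeled by replicate number, with controls in blue and Atrx-cKO in orange, and in both panels the 6 libraries have the same order on each axis.

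Per kilobase of exon, from CPM divided by exon length (RPKM), the members covered a wide range. *Arfgap1* was highest with a mean over the 6 libraries of 22.7 RPKM, followed by *Gid8* (19.2 RPKM), *Ythdf1* (18.3 RPKM), *Eef1a2* (14.3 RPKM), *Slc17a9* (9.15 RPKM) and *Dido1* (8.06 RPKM). The ranges of neighbors in this order overlapped among these 6 genes. The place of *Eef1a2* rested on control replicate 3, at 53.1 RPKM, since its mean over the other 5 libraries was 6.49 RPKM, below *Slc17a9* and *Dido1*, and it was above *Slc17a9* in 2 of the 6 libraries. *Tcfl5* came next at 2.02 to 2.53 RPKM in Atrx-cKO and 0.0997 to 0.246 RPKM in control libraries. In each of the 6 libraries it was below *Dido1*, and the ranges did not overlap, so that the raised level of *Tcfl5* was still lower than that of the 6 genes above it. In the controls *Tcfl5* was in the range of *Nkain4*, which had 0.0990 to 0.606 RPKM over all libraries. *Birc7* was last, at 0.0137 RPKM at most.

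**Figure D3:**
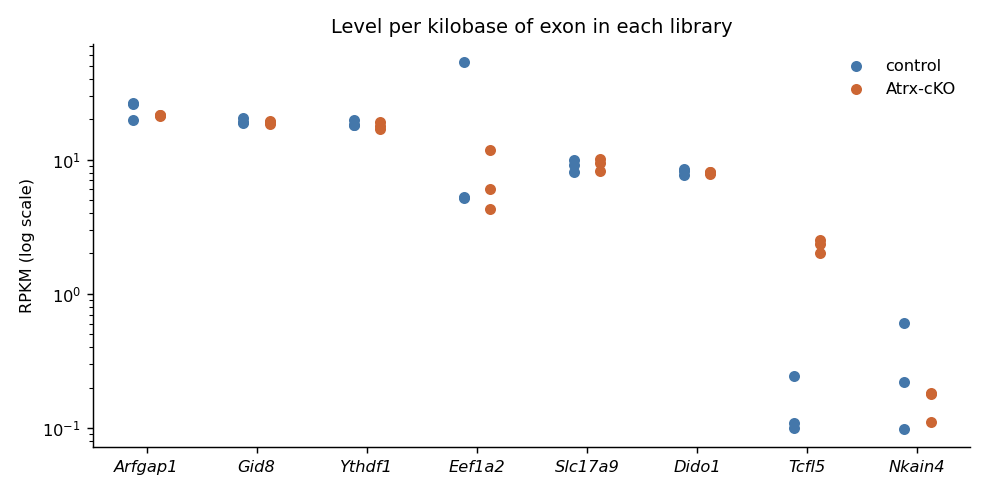
RPKM (level per kilobase of exon, log scale) of 8 of the 9 genes in each library, ordered by mean, with controls in blue and Atrx-cKO in orange. *Birc7*, with no reads in 4 libraries, is not drawn. *Tcfl5* lies with *Nkain4* in the controls and between *Nkain4* and *Dido1* in Atrx-cKO.

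The comparison was then widened to each gene that the annotation places within 1 Mb of the *Tcfl5* start. Of 78 such genes, 46 passed the expression filter, and 13 had no read in any library. An unadjusted p under 0.05 was reached by 3 of the 46, *Tcfl5*, *Chrna4* and *Abhd16b*, beside 3.64% of all genes tested. Groups did not overlap for 4 of the 46, these 3 among them, beside 8.31% of all genes tested. The median log2 fold change of the 46 genes was -0.02, beside 0.00495 for all genes tested, with 21 above and 25 below 0. *Abhd16b* had a mean under 1 CPM in both groups. Without such genes, *Tcfl5* and *Chrna4*, 39 genes were left. This choice removes all 3 genes named, so the 0 of 39 at an unadjusted p under 0.05 in edgeR is not a result. The log2 fold changes of the 39 genes ran from -1.52 for *Eef1a2* to 0.69 for *Col9a3*. With DESeq2, 2 of the 46 had an adjusted p under 0.05, again *Tcfl5* and *Chrna4*, both among the 23 genes called with DESeq2 over the whole genome.

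*Chrna4*, a nicotinic acetylcholine receptor subunit whose start is 400.8 kb from that of *Tcfl5*, lies between *Arfgap1* and *Eef1a2* at chr2:181018380-181043546 on the minus strand. Reads on it numbered 105, 29 and 54 in Atrx-cKO replicates 1 to 3 and 4, 13 and 1 in control replicates 1 to 3. The means were 1.07 ± 0.658 and 0.0954 ± 0.0898 CPM (SD, n = 3 each), and the lowest Atrx-cKO library was 2.60 times the highest control. Its log2 fold change of 3.39 had a standard error of 0.73 (95% interval 1.68 to 5.09, adjusted p = 0.992 in edgeR and 0.00207 in DESeq2). The libraries within a genotype were ordered differently from those of *Tcfl5*, since control replicate 3 was the highest control for *Tcfl5* and the lowest for *Chrna4*, and Atrx-cKO replicate 1 was the lowest for *Tcfl5* and the highest for *Chrna4*. RefSeq's promoter of *Chrna4* has its start at 181039177, inside the gene span given above and not at the start used for the distance. It held 24 CG dinucleotides and 74.4% GC, beside a median GC content of 52.4% over all promoters. Like the promoter of *Tcfl5*, it held the pattern of 4 GGG runs, here on the opposite strand. Of all promoters, 16.7% held the pattern. Of the genes of the window that are not members, only *Chrna4* was examined for it. To show it, the 122 bases at chr2:181039306-181039427 (minus strand, GRCm38, upstream of the RefSeq start at 181039177 and in no annotated exon) are given 5′ to 3′ with the 2 matches in capitals:
Chrna4 upstream: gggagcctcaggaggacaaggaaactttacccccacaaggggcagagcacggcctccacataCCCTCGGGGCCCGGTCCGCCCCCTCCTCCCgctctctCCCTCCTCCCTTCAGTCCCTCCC

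The 8 tested genes between *Tcfl5* and *Chrna4* had log2 fold changes from -0.98 for *Nkain4* to 0.04 for *Slc17a9*. *Mrgbp* and *Ogfr*, which lie on the other side of *Tcfl5* with starts at -61.4 and -53.5 kb, had log2 fold changes of -0.03 and 0.12. *Abhd16b*, whose start is 850.5 kb from that of *Tcfl5*, had 0.0973 ± 0.0491 against 0.304 ± 0.119 CPM (SD, n = 3 each, log2 fold change -1.61, adjusted p = 0.992), a level near the allowance of 3 counts.

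**Figure D4:**
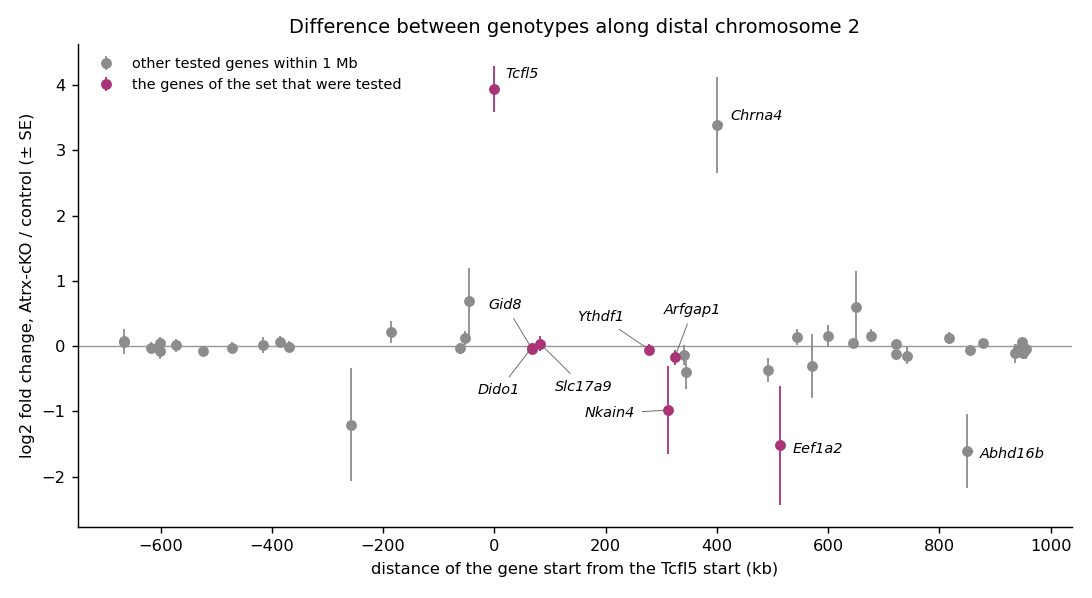
Log2 fold change of Atrx-cKO over control (± standard error of the edgeR fit) of the 46 tested genes against the distance of their start from the *Tcfl5* start in kb, with the 8 tested members in purple and the other genes in gray. *Tcfl5* at 3.94 and *Chrna4* at 3.39 stand above the rest, and the members between them lie near 0 apart from *Nkain4*, whose error is wide.

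Each member was next set beside genes that work with it or belong to its family, in lists chosen with earlier results of these data known. Of 20 male meiotic germ cell genes listed with *Tcfl5*, 12 were tested, and *Tcfl5* was the only one with an adjusted p under 0.05. The median log2 fold change of the other 11 was -0.14. *Sycp3*, an axis protein of meiotic chromosomes, had 4.01 ± 0.548 against 4.43 ± 0.994 CPM (SD, n = 3 each). *Ythdc2*, an RNA helicase that germ cells need to enter meiosis, had 21.8 ± 1.72 against 20.6 ± 0.991 CPM (SD, n = 3 each), and *Rfx2*, a transcription factor of spermatids, had 8.97 ± 1.73 against 10.6 ± 2.83 CPM (SD, n = 3 each). The highest of the others, named after its value was seen, was *Spo11*, which makes the breaks that start meiotic recombination, with 40, 38 and 41 counts in Atrx-cKO and 33, 12 and 10 counts in control libraries (log2 fold change 1.07, adjusted p = 0.992).

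The 11 CTLH ligase subunits around *Gid8* had a median log2 fold change of 0.0044, and none passed an adjusted p of 0.05 in edgeR or DESeq2. *Maea*, a RING subunit of the ligase, had a log2 fold change of -0.03, *Wdr26* one of 0.03 and *Rmnd5a*, also a RING subunit, one of -0.11. An unadjusted p under 0.05 was reached by 1 of the 11, beside 3.64% of all genes tested. This was *Gid4*, which recruits substrates, with 46.3 ± 2.58 against 53.8 ± 4.99 CPM (SD, n = 3 each, adjusted p = 0.992). It was named after its value was seen.

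Of 19 writers, erasers and readers of m6A listed with *Ythdf1*, 18 were tested, and 0 reached an unadjusted p under 0.05 in edgeR or an adjusted p under 0.05 in DESeq2. Their median log2 fold change was -0.0076. The paralog *Ythdf3* had 124 ± 1.20 against 125 ± 5.86 CPM, the demethylase *Alkbh5* had 96.7 ± 5.84 against 104 ± 2.33 CPM, and *Wtap*, a subunit of the methyltransferase complex, had 76.8 ± 2.46 against 76.4 ± 3.47 CPM (SD, n = 3 each).

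Of 10 inhibitors of apoptosis with a BIR domain, 8 were tested, *Birc7* and *Naip1* being below the expression filter, with 0 at an unadjusted p under 0.05 in edgeR and 0 at an adjusted p under 0.05 in DESeq2. Their median log2 fold change was 0.09. *Xiap*, which inhibits caspases directly, had 134 ± 6.03 against 124 ± 8.46 CPM, and *Birc5* (survivin), which acts in cell division, had 44.8 ± 6.85 against 40.1 ± 9.75 CPM (SD, n = 3 each).

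Among the 10 cytosolic elongation factors, *Eef1a2* lay farthest from 0. The other 9 ranged from -0.08 to 0.19 on the log2 scale, and 0 of the 10 reached an unadjusted p under 0.05 in edgeR or an adjusted p under 0.05 in DESeq2. *Eef1a1*, the isoform used by most cells, had 1272 RPKM in Atrx-cKO and 1245 RPKM in control tibias, while *Eef1a2* had 14.3 RPKM over all libraries and 6.49 RPKM without control replicate 3. *Eef2*, which moves the ribosome along the mRNA, had 467 and 474 RPKM.

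The 23 ARF GTPases and their activating proteins, *Arfgap1* included, had a median log2 fold change of 0.02, with 0 at an unadjusted p under 0.05 in edgeR and 0 at an adjusted p under 0.05 in DESeq2. *Arf1*, the GTPase on which ARFGAP1 acts, had 345 ± 18.6 against 336 ± 16.3 CPM, and *Arf4* had 227 ± 6.17 against 244 ± 40.5 CPM (SD, n = 3 each). Of 14 SLC17 transporters and genes of vesicular ATP release, 8 were tested, with a median of -0.04. In that list *Slc17a5*, the lysosomal sialic acid exporter, had 21.1 ± 3.72 against 25.8 ± 2.94 CPM (SD, n = 3 each). An unadjusted p under 0.05 was reached by 1 of the 8, beside 3.64% of all genes tested. This was *Slc17a8*, a vesicular glutamate transporter named after its value was seen, with 0.448 ± 0.144 against 0.998 ± 0.282 CPM (SD, n = 3 each, adjusted p = 0.992). None passed in DESeq2.

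For *Nkain4*, the list of NKAIN genes and sodium pump subunits had 7 of 9 members tested, with 0 at an unadjusted p under 0.05 in edgeR, 0 at an adjusted p under 0.05 in DESeq2 and a median log2 fold change of -0.63. *Atp1b3*, a beta subunit of the pump, had 316 ± 30.9 against 347 ± 66.2 CPM and *Atp1b1* 34.5 ± 5.02 against 31.1 ± 5.57 CPM (SD, n = 3 each). For *Dido1*, the 6 genes with a SPOC domain, which bind the tail of RNA polymerase II or corepressors, had a median of -0.0082, with 0 at an unadjusted p under 0.05 in edgeR and 0 at an adjusted p under 0.05 in DESeq2. *Spen* had 133 ± 2.06 against 146 ± 9.04 CPM and *Phf3* 90.8 ± 1.51 against 90.9 ± 5.01 CPM (SD, n = 3 each).

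**Figure D5:**
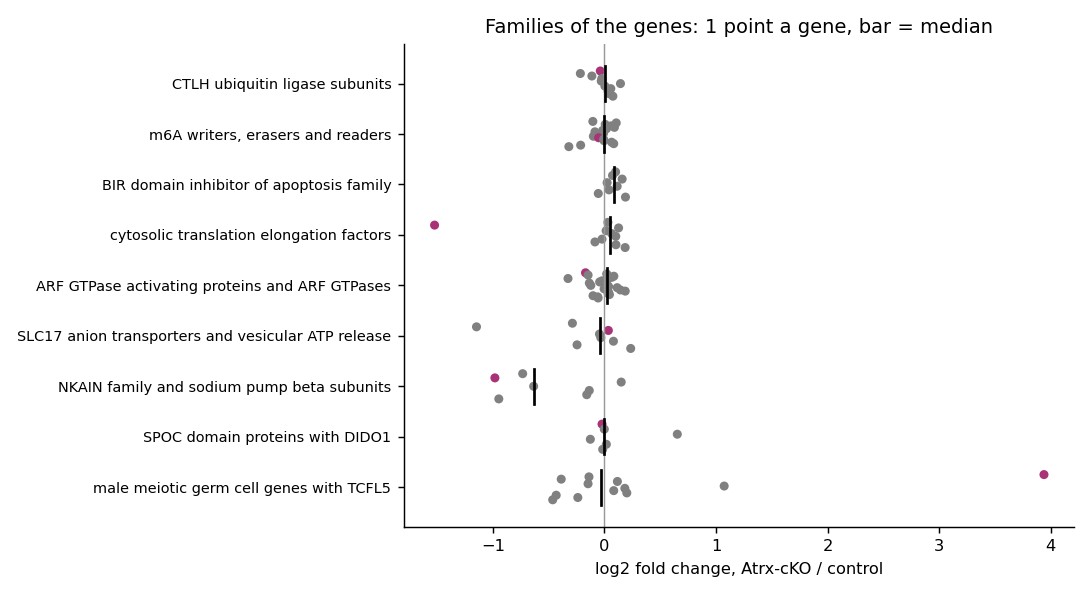
Log2 fold change of Atrx-cKO over control for each tested gene of 9 lists, 1 row of points per list, with members of the chromosome 2 set in purple, other genes in gray and the median of the list as a black bar. *Tcfl5* at 3.94 lies far to the right of the other meiotic genes and *Eef1a2* at -1.52 to the left of the other elongation factors.

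The 5 genes whose profile over the 6 libraries was nearest to that of *Tcfl5* lay on other chromosomes. Likeness was the Euclidean distance between log2(CPM + 0.5) values centered on each gene's mean, over 17731 genes with a mean of at least 0.5 CPM, and it uses the same contrast that chose *Tcfl5*. *Lyrm4* on chromosome 13, which serves mitochondrial iron-sulfur cluster assembly, was nearest at 1.67, with 17.4 ± 0.731 against 4.90 ± 0.347 CPM (SD, n = 3 each). *Bglap3*, an osteocalcin-related gene on chromosome 3, followed at 2.27 with 5.66 ± 0.665 against 2.16 ± 0.384 CPM (SD, n = 3 each), and it has near-identical copies that could share its reads. *Saa3*, an acute phase gene on chromosome 7, was at 2.34, and the immunoglobulin segments *Igkv12-46* and *Igkv5-48* on chromosome 6 were both at 2.35. *Chrna4*, which lies in the same segment of chromosome 2 as *Tcfl5*, was in place 6. The median distance of all genes compared was 3.74, and *Dido1*, *Gid8*, *Slc17a9*, *Ythdf1* and *Arfgap1* lay at 3.70 to 3.91, in places 6860 to 14618, while *Eef1a2* lay at 5.23.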

How the data were processed

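Tibia RNA of 3 Atrx-cKO and 3 control mice was sequenced as polyadenylated, paired-end libraries on an Illumina HiSeq by GENEWIZ. The authors deposited raw read counts per Ensembl gene for each library. Per the submitters' processing notes the build was GRCm38 and DESeq2 was used. The aligner, counter and annotation are not given in the sources used here. Reads on no feature (51.6% to 52.4% of each table), not unique (3.69% to 4.56%) or ambiguous (0.644% to 0.701%) entered neither the library sizes nor the tests.

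Genes were named by GENCODE M21 (55141 of 55401 identifiers matched). Counts were fitted with edgeR 4.0.16 in R 4.3.3 (TMM, filterByExpr defaults, glmQLFit and glmQLFTest on genotype, Benjamini-Hochberg over 20636 genes). Two-sided p-values are from this fit, and 3 against 3 libraries could not give an exact permutation p below 0.1. DESeq2 1.42.0, other scalings and filters, and omission of each library were alternatives. The fits were tested on simulated data. RPKM used the union of annotated exons.

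The members and lists were chosen with earlier results of these data known. Named genes were the members, genes within 1 Mb of the *Tcfl5* start whose groups did not overlap, *Chrna4*, the 3 most abundant others of each list, any list member at an adjusted p under 0.05 and the 5 genes nearest in profile to *Tcfl5*. *Col9a3*, *Mrgbp* and *Ogfr* were named for their position. Some genes that meet this rule are not reported here.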

Additional observations from a re-analysis of the deposited data

How the results depend on the processing

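The log2 fold change of *Tcfl5* kept its direction in each alternative run. Its adjusted p was 0.0387 in the main edgeR fit, 6.58e-06 in edgeR with no filter and 1.65e-34 in DESeq2. In edgeR it rose above 0.05 with at least 10 counts required in every library (log2 fold change 3.94, adjusted p = 0.0607). It did so too with the replicate block (log2 fold change 4.01, adjusted p = 0.126). As this contrast chose the gene, these values describe the call and are not a test. With 1 library left out the log2 fold change was 3.72 to 4.43, and of these fits the call held only without control replicate 3. With Atrx-cKO replicate 1 and control replicate 3 both left out, an alternative added after seeing the data, the log2 fold change was 4.53. The labels number the replicates 1 to 3 in each genotype, but deviations of same-numbered libraries correlated at -0.003, 0.108 and -0.100, so the numbers were not taken to pair the samples. The number of genes called was 5 with no filter, 1 with the stricter filter, 23 in DESeq2, 0 with the replicate block and 0 to 5 with 1 library left out (0 when control replicate 2 or either of Atrx-cKO replicates 1 and 2 was left out, and 5 without control replicate 3). Within 1 Mb of *Tcfl5*, 5 genes had an unadjusted p under 0.05 with no filter, 1 with the stricter filter and 2 to 6 with 1 library left out, the 6 being without control replicate 1. The median log2 fold change there was 0.0019 in DESeq2 and -0.0448 to 0.003 with 1 library left out. Leaving out 1 library turned the sign for 4 members that had not passed the test, with ranges of -0.0769 to 0.0087 for *Dido1*, -0.0731 to 0.0006 for *Gid8*, -0.0387 to 0.1111 for *Slc17a9* and -2.03 to 0.49 for *Eef1a2*. The cause was not tested, and these fits also had fewer libraries. Scaling by RLE or by upper quartiles left 3 genes called and 3 genes within 1 Mb at an unadjusted p under 0.05. Of the values for the members other than *Tcfl5*, 85 kept their direction and their side of the threshold. DESeq2 gave no adjusted p for *Eef1a2*. Depth limits *Birc7* and *Nkain4*.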

Other observations

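*B230312C02Rik*, a long noncoding RNA whose start is at -256.8 kb from that of *Tcfl5*, had 0.274, 0.0701 and 0.357 CPM in Atrx-cKO replicates 1 to 3 and 0.123, 0.330 and 1.20 CPM in control replicates 1 to 3, so that its highest library was control replicate 3, as for *Eef1a2*. *Spo11* also lies on chromosome 2, at -7665 kb from the *Tcfl5* start, and its highest control, replicate 1, was the lowest control for *Tcfl5*.

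Markers of the other cell types in the tibia were compared with the members in the same way as muscle and osteoblast markers, and none put the 6 libraries in the order of a member. The summed levels in Atrx-cKO and control libraries ran from 2011 to 2743 and 2305 to 3794 CPM for 8 osteoclast genes, and from 803 to 1173 and 1095 to 1608 CPM for 8 chondrocyte genes. They ran from 3422 to 4472 and 2294 to 5577 CPM for 8 erythroid genes, and from 9136 to 13216 and 7577 to 10846 CPM for 9 neutrophil genes. For 8 B cell genes they were 251 to 345 and 186 to 332 CPM, and for 9 Schwann cell and nerve genes 103 to 126 and 104 to 118 CPM.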
